A study of Mus musculus with 6 samples.

Results

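The 36 genes described here are needed to enter, run or leave mitosis: cyclins and mitotic kinases, the spindle checkpoint, centromere proteins, kinesins, cytokinesis factors, and the anaphase machinery, with Mki67 and Top2a. They were chosen by name, and each array probe whose gene name, current or former, equals one of them was taken. All 36 had probes, 59 in number, on an array whose 41174 probes carry 27573 gene names. Hepa1-6, a hepatoma line of the mouse, was injected subcutaneously into female C57Bl/6 animals, and RNA was taken from the resulting tumors after 10 days (n = 3, numbered 302, 307 and 312) or 15 days (n = 3, numbered 303, 313 and 318). Neither group carried a further treatment or a genetic change that the labels name. Each tumor's RNA, labelled with Cy5, was hybridised on its own 2-colour array with a Cy3-labelled reference, described as total RNA from the blood of an untreated female C57Bl/6 mouse. A tumor of this kind holds the injected line together with host cells. In such bulk RNA, fewer cells of a type and less RNA per cell cannot be told apart. The labels do not tie tumors to mice, so the spread behind each p-value is that of these 6 samples and may be technical.

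Mitotic entry is driven by cyclin B bound to its kinase, with Plk1 and Aurora A acting beside it. The spindle checkpoint then holds the anaphase-promoting complex inactive until chromosomes are attached, after which Cdc20 and Ube2c help to mark cyclins and securin for destruction. The transcripts of most of these genes build up in G2 and fall after division, so in a mixture of cells their level moves with the number of cells close to mitosis.

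Some features of the arrays bear on every value. All day 10 arrays lay on 1 slide and all day 15 arrays on another, so slide and day cannot be told apart. No array had its dyes swapped, so any dye bias remains within a ratio. On the array of tumor 312 an area with 14.1% of the spots had lost signal in both dyes. It covered the probes used for Ccnb1, Ccnb2, Ttk, Kif22, Racgap1 and Pttg1. In that tumor the ratios of the first 5 were read from spots dimmer than on any other array, while the Pttg1 spots stayed bright. Aurka and Birc5 have no value in tumor 312, because their spots were marked as outliers there, and the fits used the other 5 tumors for them. Tumor 313 stood apart. Its summed normalised Cy5 signal over 12 hepatoma and hepatocyte markers was 75224, against at least 729556 in each of the others, and Afp, the fetal liver protein, had a log2 ratio of -4.75 there against at least 2.22 elsewhere. Some markers of the same list went the other way: Gpc3 had 5.13 in tumor 313 and 4.73 to 5.48 elsewhere, and Dlk1 (3.56) and H19 (3.20) were highest in tumor 313. Several blood markers were low in the reference. The globin genes Hba-a1 and Hbb-bt had log2 ratios of 3.76 and 5.80 in favour of the tumors, although 4 of 8 erythroid markers exceeded background clearly in all 6 Cy3 signals. Of 9 neutrophil markers 0 did so in all 6, and S100a8, Camp, Mpo and Elane in none. Of 14 hepatoma and hepatocyte markers 9 did so in all 6, the liver genes Alb and Afp among them, and Ttr and Dlk1 in none. Ratios here are against this RNA, which is called the reference.

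Most of the 36 genes were lower in the tumors than in that reference. Of the 36, 27 were called lower (limma, adjusted p under 0.05 and an absolute log2 ratio of at least 1) and 0 were called higher. Among all 16310 genes tested, 9.75% were called lower and 25.5% higher. The median log2 ratio of the 36 genes was -1.29, against 0.22 for all genes. Except for Pttg1, all had a mean below 0, and 33 of the 34 with a value on every array were below 0 on all 6, as were 31% of genes tested. This test sets 6 tumors against 0 and leaves out the spread of the reference, which is the same described RNA on each array. Without tumor 313, 21 members and 8.18% of 16306 genes were called lower, and the member median was -1.06. With arrays centred on their medians instead of loess, 35 were called lower; that scaling moved the median of all genes to -0.34 and the all-gene calls to 4594 lower and 3239 higher, against 1591 and 4159. The scanner's processed signals gave 31 members and 3313 genes lower and 4400 higher, and 31 members and 3228 genes were lower and 4450 higher by the authors' deposited value table. Relative to the all-gene median, the member median was -1.52 in the main setting and -1.73 with centring.

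**Figure D1:**
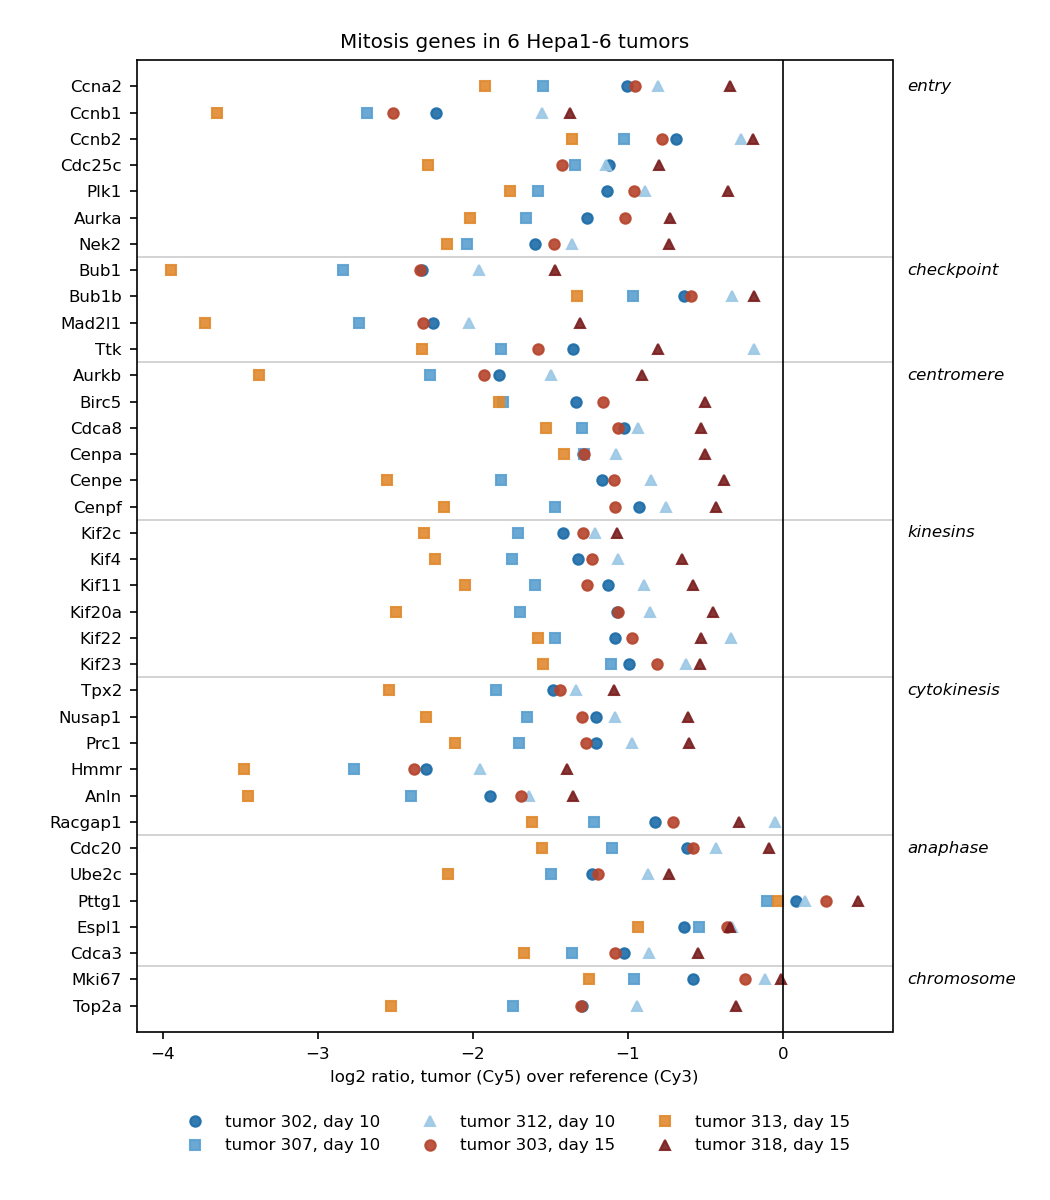
Log2 ratio of tumor (Cy5) over reference (Cy3) on the x axis for each of the 36 genes, 1 symbol per tumor, grouped by role; a value of 0 means equal signal. All symbols but those of Pttg1 lie left of 0, tumor 313 is leftmost in nearly every row, and tumor 318 is rightmost in most.

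Of the 7 genes of mitotic entry, 6 were called lower, with a median log2 ratio of -1.35. Nek2, a centrosome kinase, had the smallest p of the group. Its log2 ratios were -1.60, -2.03 and -1.36 in day 10 tumors 302, 307 and 312, and -1.48, -2.16 and -0.73 in day 15 tumors 303, 313 and 318 (mean -1.56 ± 0.51 SD, n = 6; limma adjusted p = 0.000376). The lowest and the highest tumor were both of day 15, and the day groups overlapped. Ccnb1, cyclin B1, lay lower still, at -2.24, -2.68 and -1.55 at day 10 and -2.51, -3.65 and -1.38 at day 15, a mean of -2.33 ± 0.83 (SD, n = 6). That mean corresponds to 5.04-fold more signal in the reference. Ccnb2, the second B-type cyclin, read -0.69, -1.02 and -0.27 at day 10 and -0.78, -1.36 and -0.19 at day 15 (mean -0.72 ± 0.44 SD, n = 6) and was not called, since its mean stayed under the size limit. Ccna2, the cyclin of S phase and early mitosis, and Plk1, the polo kinase, were called at -1.10 ± 0.56 and -1.11 ± 0.51 (SD, n = 6). Ccna2 read -1.005, -1.54 and -0.81 at day 10 and -0.95, -1.92 and -0.34 at day 15. Plk1 read -1.14, -1.58 and -0.89 at day 10 and -0.96, -1.76 and -0.35 at day 15. Both lost the call without tumor 313, at -0.88 and -0.93, and Ccna2 also without tumor 307, at -0.99. Aurka, the centrosomal Aurora kinase, was at -1.36 ± 0.51 (SD, n = 5). Cdc25c, the phosphatase that switches on the cyclin B kinase, was at -1.35 ± 0.51 (SD, n = 6) and not well above background in the Cy5 signal of tumor 313.

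The 4 spindle checkpoint genes held the ratios farthest from 0. Bub1, a kinetochore kinase of the checkpoint, read -2.33, -2.84 and -1.96 at day 10 and -2.34, -3.95 and -1.47 at day 15 (mean -2.48 ± 0.85 SD, n = 6; limma adjusted p = 0.000419). Mad2l1, which binds and holds back Cdc20, read -2.26, -2.74 and -2.02 at day 10 and -2.32, -3.73 and -1.31 at day 15 (mean -2.40 ± 0.80 SD, n = 6; limma adjusted p = 0.000394). In both genes tumor 313 was the lowest, tumor 318 the highest, and the day 10 tumors lay between them. Ttk, the kinase that starts checkpoint signalling, averaged -1.34 ± 0.76 (SD, n = 6), but was well above background in Cy5 on only 3 arrays. Bub1b, a subunit of the inhibitor of the anaphase-promoting complex, read -0.63, -0.97 and -0.33 at day 10 and -0.59, -1.33 and -0.19 at day 15, a mean of -0.67 ± 0.42 (SD, n = 6), and was not called. It passed the limit with the scanner's processed signals, at -1.17, and with median centring, at -1.36.

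All 6 genes of the chromosomal passenger complex and the centromere were called lower. Aurkb, the kinase of the passenger complex, had the lowest mean at -1.97 ± 0.83 (SD, n = 6), reading -1.83, -2.28 and -1.49 at day 10 and -1.93, -3.38 and -0.91 at day 15. Birc5 (survivin), its partner, read -1.33 and -1.80 in tumors 302 and 307, and -1.16, -1.83 and -0.50 in the day 15 tumors. Cenpa, the histone H3 variant of centromeres, read -1.29, -1.28 and -1.07 at day 10 and -1.28, -1.41 and -0.50 at day 15 (mean -1.14 ± 0.33 SD, n = 6; limma adjusted p = 0.000286). In Cenpa 5 tumors lay close together and tumor 318 apart from them. Cdca8 (borealin), another passenger protein, was at -1.06 ± 0.34, Cenpe, a kinetochore motor, at -1.31 ± 0.77, and Cenpf, an outer kinetochore protein, at -1.14 ± 0.62 (SD, n = 6 each). Cdca8 read -1.03, -1.29 and -0.94 at day 10 and -1.06, -1.53 and -0.53 at day 15. Cenpf read -0.93, -1.47 and -0.76 at day 10 and -1.08, -2.18 and -0.43 at day 15, again with tumor 313 lowest and tumor 318 highest. Cdca8 and Cenpf lost the call without tumor 313, at -0.94 and -0.90.

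Of 6 kinesins, motor proteins that move along or take apart microtubules, 4 were called lower, and the means of all 6 lay between -1.50 and -0.94. Kif2c, which depolymerises microtubules at kinetochores, had the smallest p, with -1.42, -1.71 and -1.21 at day 10 and -1.29, -2.32 and -1.07 at day 15 (mean -1.50 ± 0.45 SD, n = 6; limma adjusted p = 0.000291). Kif11, the motor that pushes spindle poles apart, was at -1.25 ± 0.52, Kif4, a motor of chromosome arms, at -1.38 ± 0.55, and Kif20a, a motor of the central spindle, at -1.27 ± 0.72 (SD, n = 6 each). Kif20a read -1.07, -1.70 and -0.86 at day 10 and -1.07, -2.49 and -0.45 at day 15, and it lost the call without tumor 313, at -0.98. Kif22 and Kif23 lay just under the size limit, at -0.99 ± 0.50 and -0.94 ± 0.37 (SD, n = 6). Kif22 read -1.08, -1.47 and -0.33 at day 10 and -0.97, -1.58 and -0.53 at day 15, highest in tumor 312, where its spots lay in the lost area. Kif23 read -0.99, -1.11 and -0.62 at day 10 and -0.81, -1.54 and -0.53 at day 15. Kif22 passed the limit, at -1.15, once the lost area of array 312 was left out. Kif23 passed it without tumor 312, at -1.01, and without tumor 318, at -1.04.

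Among the 6 genes of the spindle and cytokinesis, 5 were called lower. Hmmr, a spindle assembly factor, had the smallest p of all 36 members, reading -2.30, -2.76 and -1.95 at day 10 and -2.38, -3.47 and -1.39 at day 15 (mean -2.38 ± 0.71 SD, n = 6; limma adjusted p = 0.00024). Anln (anillin), a scaffold of the contractile ring, followed at -2.07 ± 0.76 (SD, n = 6), and both were below the limit of well above background in the Cy5 signal of tumor 313. Tpx2, which activates Aurora A on the spindle, was at -1.62 ± 0.51, Nusap1, a spindle microtubule protein, at -1.36 ± 0.57, and Prc1, which bundles the central spindle, at -1.31 ± 0.53 (SD, n = 6 each). Racgap1, a regulator of the contractile ring, was not called at -0.78 ± 0.58 (SD, n = 6) by its brighter probe, which sat in the lost area of array 312. That probe read -0.82, -1.22 and -0.05 at day 10 and -0.71, -1.62 and -0.28 at day 15. Its other probe, outside that area, read -2.02 ± 0.54 (SD, n = 6), so the probes of this gene disagreed.

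The 5 genes of the anaphase-promoting complex and anaphase were closest to the reference, with a median of -0.73 and 2 called lower. Ube2c, the ubiquitin-conjugating enzyme of the complex, read -1.23, -1.49 and -0.87 at day 10 and -1.19, -2.16 and -0.73 at day 15 (mean -1.28 ± 0.51 SD, n = 6). Cdca3, a trigger of mitotic entry that is itself degraded through the complex, had the smallest p of the group, with -1.02, -1.36 and -0.86 at day 10 and -1.08, -1.67 and -0.55 at day 15 (mean -1.09 ± 0.39 SD, n = 6; limma adjusted p = 0.0007), and lost the call without tumor 313, at -0.95. Cdc20, the activator of the complex, read -0.62, -1.10 and -0.43 at day 10 and -0.58, -1.55 and -0.09 at day 15, a mean of -0.73 ± 0.52 (SD, n = 6), and was not called. Espl1 (separase), the protease that cuts cohesin, read -0.64, -0.54 and -0.33 at day 10 and -0.36, -0.93 and -0.34 at day 15 (mean -0.52 ± 0.24 SD, n = 6). Pttg1 (securin), the inhibitor of separase, was the exception among the 36. It read 0.09, -0.10 and 0.15 at day 10 and 0.28, -0.03 and 0.49 at day 15, a mean of 0.14 ± 0.21 (SD, n = 6) that did not pass the test (limma adjusted p = 0.178). Median centring put Pttg1 at -0.83, so its sign rests on the scaling.

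Both genes of chromosome structure lay below 0, and 1 was called. Top2a, the topoisomerase that untangles chromosomes, read -1.30, -1.74 and -0.94 at day 10 and -1.30, -2.52 and -0.30 at day 15 (mean -1.35 ± 0.75 SD, n = 6; limma adjusted p = 0.00389). Mki67, whose protein Ki-67 is the usual stain for dividing cells, read -0.58, -0.96 and -0.12 at day 10 and -0.24, -1.25 and -0.01 at day 15. Its mean of -0.53 ± 0.50 (SD, n = 6) was under the size limit, and in tumor 318 its signal was nearly that of the reference.

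Of the 36 genes, 18 had more than 1 probe. Where a further probe was well above background in either dye on any array, its mean lay on the same side of 0 in every gene. The 3 Cenpe probes averaged -1.31, -1.67 and -2.13, and the 3 Ccnb1 probes -2.33, -2.43 and -1.76, so probes of a gene shared the sign of the ratio and differed in its size. Probes that were well above background in neither dye on any array, 1 each for Cdca8, Nusap1, Espl1 and Top2a, averaged -0.69, -0.25, -0.04 and -0.07.

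The tumors kept nearly the same order in gene after gene. Of the 34 genes with a value in all tumors, 33 had their lowest log2 ratio in tumor 313, as did 30.1% of 15634 genes, and 30 had their highest in tumor 318, as did 21.2%. Pttg1, lowest in tumor 307, was the exception at the low end, while Ttk, Kif22, Racgap1 and Espl1 were highest in tumor 312. With the lost area of array 312 left out, all 28 genes with complete values were lowest in 313 and 27 were highest in 318. The median of the 36 genes was -1.18, -1.62 and -0.89 in the day 10 tumors and -1.18, -2.14 and -0.54 in those of day 15. The tumor medians spanned 1.59 on the log2 scale, and 0.73 without tumors 313 and 318. Median centring left 34 lowest in 313 but only 15 highest in 318. By Cy5 signal alone, 27 were lowest in 313, as were 27.2% of all genes, and 21 were highest in 318, as were 10.8%. Another 13 were highest in tumor 312, as were 49.9% of all genes. These Cy5 counts kept the lost area of array 312, and the 6 genes read from probes there were lowest in tumor 312.

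Between tumors 318 and 313, which were both removed at day 15, all 36 genes differed in the same direction. The difference ran from 0.52 (Pttg1) to 2.48 (Bub1) on the log2 scale, with a median of 1.46 or 2.75-fold, against -0.09 for all genes. It reached at least 1 in 33 of the 36 genes and in 8.97% of 15757 genes. Bub1 differed 5.57-fold, Aurkb 5.54-fold, Mad2l1 5.34-fold and Ccnb1 4.83-fold, while Cenpa differed 1.89-fold. These are differences between 2 single samples, with no test.

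**Figure D2:**
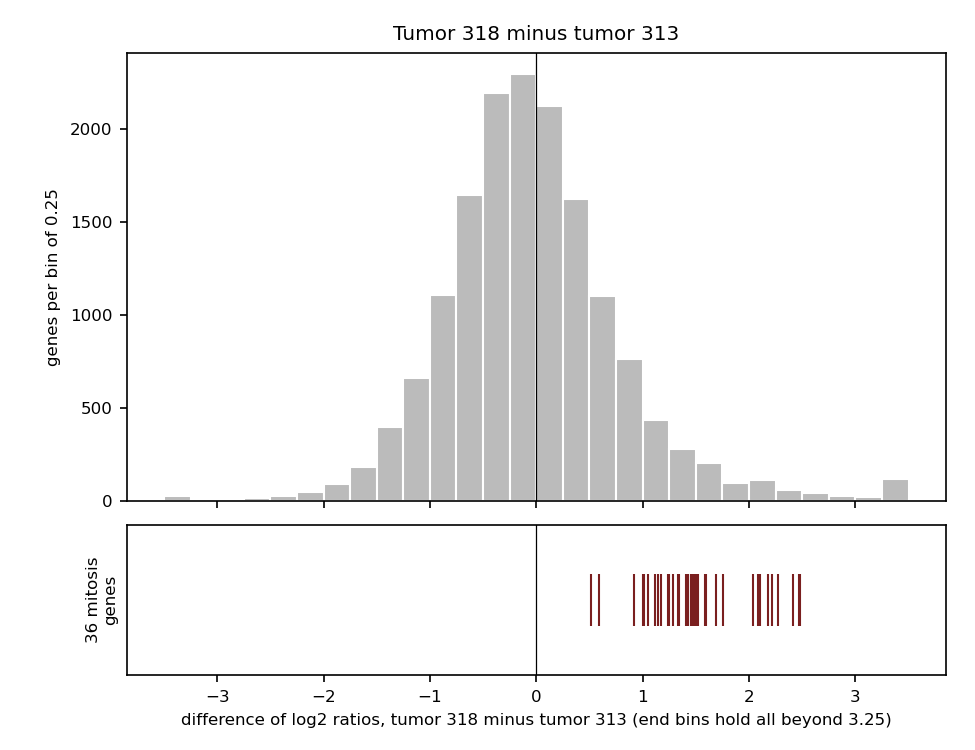
Difference of log2 ratios between tumor 318 and tumor 313. The upper panel counts all genes tested between the days in bins of 0.25, and each mark below is 1 of the 36 genes; all marks lie right of 0, between 0.52 and 2.48.

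The other tumors filled the space between these ends. Tumor 307 was above tumor 313 in 35 of 36 genes, against 46% of 15755 genes, by a median of 0.45. Tumors 302 and 303, of different days, were nearly level. Tumor 303 was above 302 in 21 of 36 genes, close to the 54.1% of all genes. The median difference was 0.04, with a range from -0.31 to 0.34. Outside the lost area, tumor 312 was above 303 in 28 of 28 genes, against 47.8% of all genes, by a median of 0.21. In the 28 genes with complete values outside that area, a single value per tumor accounted for 88.8% of the sum of squares around the gene means.

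Over the 6 tumors, the normalised log2 Cy5 signal of the 36 genes had a median SD of 0.53, against 0.29 for all genes tested. The log2 Cy3 signal of the same spots had a median SD of 0.11, against 0.12 for all genes. The Cy5 SD was above the Cy3 SD in 36 of 36 genes, and in 91% of all 15805 genes, so that count is near the background. Kif11 came closest to having both alike, with 0.54 in Cy5 and 0.42 in Cy3. These values leave out the lost area of array 312.

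**Figure D3:**
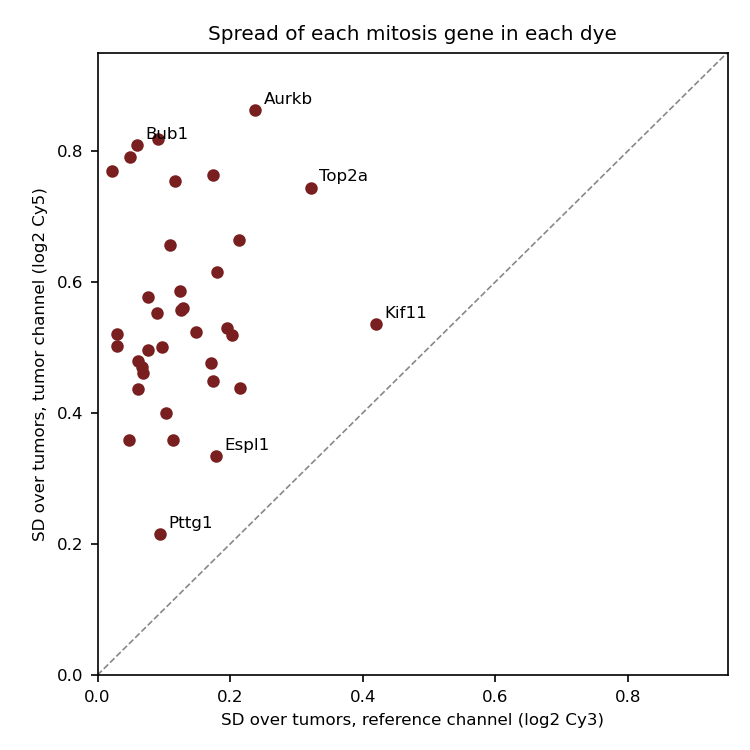
SD over tumors of the normalised log2 signal of each of the 36 genes, reference channel (Cy3) on the x axis and tumor channel (Cy5) on the y axis, with the line of equal spread dashed. Every point lies above the line, and Kif11 has the largest Cy3 SD, 0.42.

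By their median, the hepatoma markers matched the order of the mitosis genes at its ends, tumors 313 and 318. These medians kept the lost area of array 312, so the place of tumor 312 in them is uncertain. With that area left out, 12 of 14 markers had a value in every tumor. Dlk1 read 0.19 in tumor 312 and 2.37 to 3.56 in the others. The median log2 ratio of the hepatoma markers was -0.99 in tumor 313, between 2.04 and 2.45 in tumors 302, 307, 312 and 303, and 2.95 in tumor 318, over the 13 markers tested between the days. Over the 14 tested against the reference it was -1.12 in tumor 313 and ran from 1.27 (312) to 2.66 (318) in the others. Summed Cy5 over 9 fibroblast markers ran from 573699 to 713865 at day 10 and from 687938 to 1124012 at day 15, and over 10 endothelial markers from 14349 to 22367 and from 25982 to 45387. Over 7 B and plasma cell markers it ran from 17770 to 18497 and from 21715 to 100614, and over 10 macrophage markers from 483667 to 592556 and from 431945 to 628264. Tumor 313 held the highest of each of these 4 sums. Over 7 T cell markers the sums ran from 15472 to 18415 and from 10136 to 35608, highest in tumor 318. All 10 macrophage, 10 endothelial and 10 fibroblast markers were well above background in Cy5 on all 6 arrays. Of 9 T cell markers 7 were, and Cd4 was on none. The part of these cells in the order of the mitosis genes was not tested. Tumor 318 was above tumor 302 in 36 of 36 mitosis genes, against 47.3% of all genes, by a median of 0.55. Its hepatoma marker median was higher too, at 2.95 against 2.36 over the 13 markers. Outside the lost area, tumor 312 was above 302 in 27 of 28 mitosis genes, against 49% of all genes. Its hepatoma marker median was lower than that of 302, at 2.04, but kept the lost area, so these values do not rest on the same spots. Single markers went both ways. Alb (3.06 against 2.58) and Afp (2.86 against 2.36) were higher in 312 than in 302, while Dlk1 (0.19 against 2.91) and H19 (0.50 against 1.45) were lower.

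**Figure D4:**
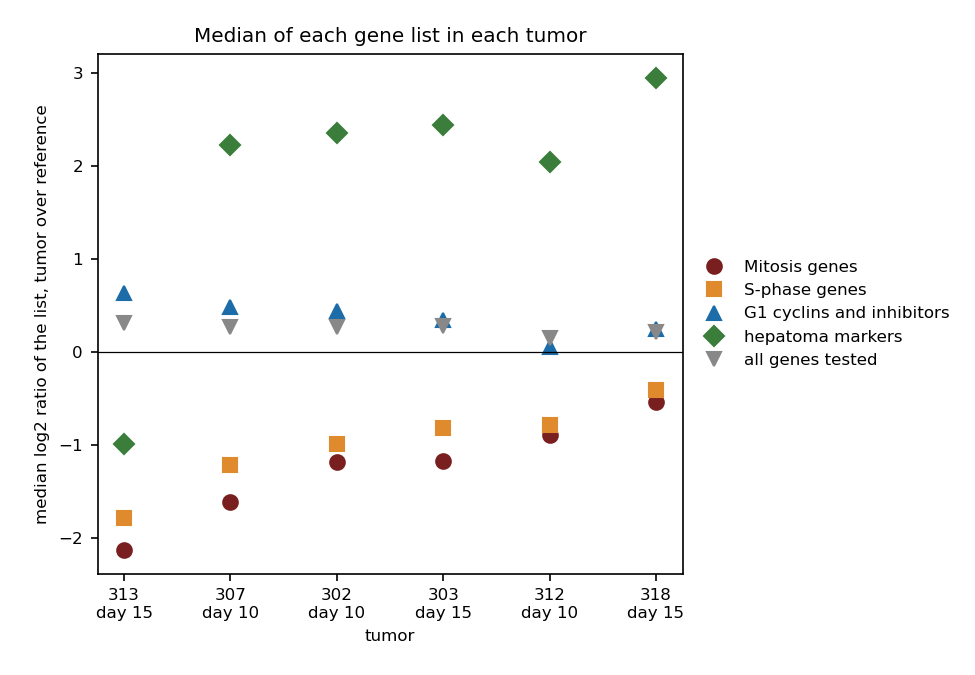
Median log2 ratio, tumor over reference, of 5 gene sets in each tumor, with tumors ordered by the median of the mitosis genes. Mitosis and S-phase genes climb together from tumor 313 (-2.14 and -1.79) to tumor 318 (-0.54 and -0.41), all genes stay between 0.15 and 0.31, and the hepatoma markers stand low in tumor 313 alone.

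No difference between day 15 and day 10 tumors was detected in any of the 36 genes. In limma's test, 0 were called higher and 0 lower, where 0.0127% and 0.0443% of 15804 genes were. The smallest unadjusted p was 0.305 (Pttg1), so 0 of the 36 were under 0.05, against 2.33% of all genes with a higher and 1.53% with a lower day 15 value, and the smallest adjusted p was 0.999. The differences (day 15 minus day 10, log2 ratio) ran from -0.45 in Ttk to 0.40 in Birc5, with a median of -0.07 against 0.02 for all genes. They were below 0 in 26 of 36 genes, against 45% of genes tested. The Ttk value of tumor 312 came from the lost area, and without that tumor the difference of Ttk was 0.02. In 0 of the 34 complete genes did the day groups separate, against 5.06% of genes with all day 15 tumors above and 3.79% with all below. The tumor channel alone gave 0 calls too, among the 36 and among all genes (0%).

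The precision of this comparison was low. The 95% intervals of the differences reached from 0.43 (1.35-fold) to 1.51 (2.84-fold) to each side, with a median of 0.97 (1.96-fold), and all 36 held 0. The day medians of the 36 genes were -1.23 ± 0.37 at day 10 and -1.28 ± 0.80 at day 15 (SD over n = 3 tumors each). The wide spread at day 15 comes with tumors 313 and 318 being its lowest and highest members. Leaving out 1 tumor set the sign of the median difference. It was 0.35 without tumor 313, with 35 of 36 genes above 0, and -0.40 without tumor 318, with 34 below 0. Without tumor 312 it was 0.10, with 29 genes above 0, and without tumor 307 it was -0.26. The genes remained uncalled in each case. Without tumor 313, Aurka differed by 0.58 (limma adjusted p = 0.955) and was the 1 member with an unadjusted p under 0.05. Median centring put all 36 differences below 0, with a median of -0.44, but moved the median of all genes to -0.30 as well.

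The skeletal muscle markers separated the days, with a summed Cy5 signal of 24787 to 186111 at day 10 and 1324 to 2303 at day 15 over 10 genes. Their part in the day comparison was not tested.

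**Figure D5:**
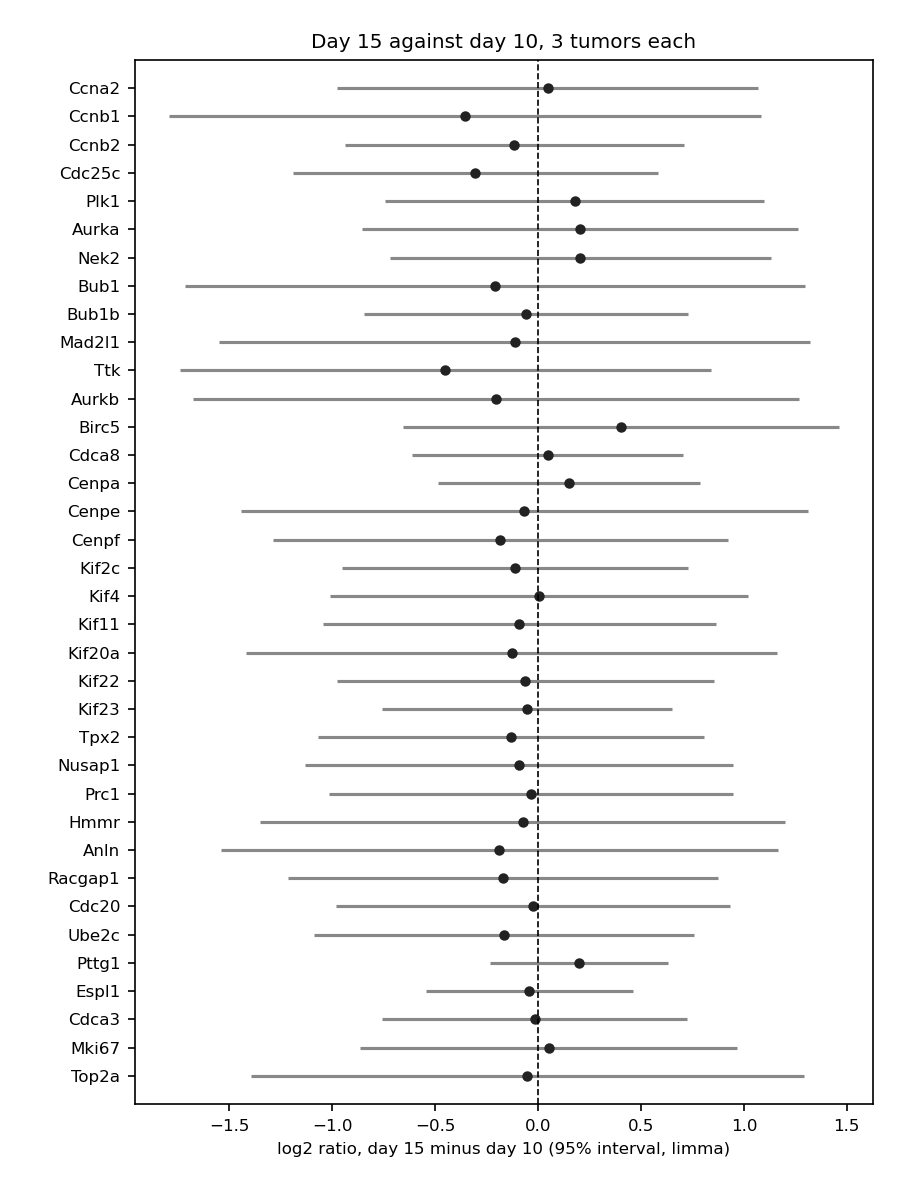
Difference of log2 ratio, day 15 minus day 10, for each of the 36 genes (points) with its 95% interval from limma (bars), 3 tumors a day. Every bar crosses the dashed line at 0, and the points run from -0.45 (Ttk) to 0.40 (Birc5). The point of Ttk includes a value of tumor 312 from the lost area.

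Other genes of the cycle were read from lists. Against the reference, 12 of 17 further mitotic kinases and switches were called lower and 0 higher, among them Foxm1, a transcription factor of G2 genes, at -1.50 ± 0.14 (SE, limma adjusted p = 0.000116), and Cdc25b at -1.04 ± 0.10. Of further kinetochore and checkpoint genes, 22 of 37 were called lower and 0 higher, with Ska2 at -1.97 ± 0.13 and Cenpq at -1.92 ± 0.16 (SE). Of further spindle and cytokinesis genes, 18 of 27 were lower and 1 higher, with Troap at -2.13 ± 0.11 and Kif18a at -2.57 ± 0.27 (SE). These 3 lists had medians of -1.34, -1.12 and -1.35, near that of the 36 genes.

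Counts for the wider machinery stand beside the 9.75% of all genes that were called lower and the 25.5% called higher. Of 17 condensin and cohesin genes, 3 were called lower, among them Smc2, a condensin core subunit, at -1.85 ± 0.19 (SE). Of 15 genes of the anaphase-promoting complex 1 was called lower, close to that share, and the list's median was 0.02. Of 30 S-phase genes 15 were called lower and 0 higher, with a median of -1.01. Ccne2, the cyclin E of S-phase entry, was at -3.07 ± 0.25 (SE). Of 21 G1 cyclins and cell cycle inhibitors, 5 were called higher, which is close to the share of all genes, and 5 lower. Ccnd2, a D-type cyclin, and Cdkn1c, an inhibitor of cyclin kinases, were at 3.83 ± 0.12 and 4.24 ± 0.19, and Cdkn2a, the Ink4a/Arf locus, at -1.96 ± 0.07 (SE). Between the days, 0 genes of any of these 7 lists were called, and the smallest adjusted p in each was 0.999.

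The S-phase list followed the same order of tumors as the mitosis genes at its ends. Its medians were -0.99, -1.21 and -0.79 at day 10 and -0.82, -1.79 and -0.41 at day 15, lowest in tumor 313 and highest in tumor 318. The G1 and inhibitor list did not: its medians were 0.44, 0.48 and 0.05 at day 10 and 0.35, 0.63 and 0.24 at day 15, with tumor 313 highest. The median over the anaphase-promoting complex stayed between -0.11 and 0.07.

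Because the 36 genes moved together over the tumors, the stretches upstream of their starts were read for motifs. The RefSeq promoter table (GRCm38.p6, 250 bases before to 50 after each start) held 31 of the 36 genes. CCAAT, searched on both strands, was in 25 of 31 (80.6%), against 37.9% of 27025 promoters in the table and 38.7% of the 10879 that belong to genes tested here. The cell cycle homology region, searched on both strands as TTTGAA and, as an alternative spelling, TTCGAA, was in 24 of 31 (77.4%), against 19.4% and 14.6%. Both were in 22 of 31 (71.0%), against 7.70% and 6.11%, and at least 2 copies of CCAAT were in 17 (54.8%), against 12.2% and 14.4%. A search for E2F sites, as TTTGGCGC, then TTTCCCGC, then TTTGCCGC and then TTTCGCGC on both strands, found 0 of 31, against 2.32% and 3.81%. By their letters, a CCAAT and a match to the other motif can share at most 1 end base. Matches are a description of the sequence and not binding sites measured here.

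The 150 bases before the start are printed for 8 genes that hold 1 or both motifs there and differ in their ratios. They are also printed for Mad2l1, whose window holds neither and whose tumor values lay close to those of Bub1. Each is written 5′ to 3′ on the gene's own strand, with CCAAT (or its reverse complement ATTGG) and the cell cycle homology region (TTTGAA, its reverse complement TTCAAA, and the palindrome TTCGAA) in capitals. The absence of capitals says only that these letters are not in the stretch. In GRCm38.p6 the stretches are Bub1 at chr2:127831860-127832009 (minus strand), Ccnb1 at chr13:100786487-100786636 (minus strand), Ccnb2 at chr9:70421555-70421704 (minus strand), Cdc20 at chr4:118437344-118437493 (minus strand), Ube2c at chr2:164769779-164769928 (plus strand), Kif11 at chr19:37376232-37376381 (plus strand), Cdca8 at chr4:124936918-124937067 (minus strand), Top2a at chr11:99024190-99024339 (minus strand) and Mad2l1 at chr6:66535071-66535220 (plus strand).
Bub1: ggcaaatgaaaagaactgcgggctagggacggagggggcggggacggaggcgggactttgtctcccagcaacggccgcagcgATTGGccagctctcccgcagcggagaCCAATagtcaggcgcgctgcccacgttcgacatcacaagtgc
Ccnb1: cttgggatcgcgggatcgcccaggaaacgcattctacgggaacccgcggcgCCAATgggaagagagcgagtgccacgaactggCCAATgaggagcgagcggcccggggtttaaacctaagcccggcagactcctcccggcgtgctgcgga
Ccnb2: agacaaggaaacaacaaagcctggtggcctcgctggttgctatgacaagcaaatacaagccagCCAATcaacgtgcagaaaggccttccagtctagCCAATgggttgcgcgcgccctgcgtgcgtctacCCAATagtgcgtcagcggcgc
Cdc20: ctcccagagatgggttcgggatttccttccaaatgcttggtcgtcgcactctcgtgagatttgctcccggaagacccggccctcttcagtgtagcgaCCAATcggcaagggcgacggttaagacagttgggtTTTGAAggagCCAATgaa
Ube2c: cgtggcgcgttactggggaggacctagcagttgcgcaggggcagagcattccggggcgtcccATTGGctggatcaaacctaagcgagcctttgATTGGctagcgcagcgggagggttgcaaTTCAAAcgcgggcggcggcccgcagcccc
Kif11: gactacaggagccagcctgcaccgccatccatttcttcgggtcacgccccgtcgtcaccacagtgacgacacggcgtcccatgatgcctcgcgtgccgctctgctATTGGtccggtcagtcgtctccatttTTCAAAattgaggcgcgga
Cdca8: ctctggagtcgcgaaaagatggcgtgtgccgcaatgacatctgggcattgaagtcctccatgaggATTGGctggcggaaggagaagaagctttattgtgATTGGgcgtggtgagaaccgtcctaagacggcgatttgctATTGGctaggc
Top2a: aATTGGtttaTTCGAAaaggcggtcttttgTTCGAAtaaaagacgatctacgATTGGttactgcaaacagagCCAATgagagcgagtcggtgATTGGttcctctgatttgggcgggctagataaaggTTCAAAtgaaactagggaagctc
Mad2l1: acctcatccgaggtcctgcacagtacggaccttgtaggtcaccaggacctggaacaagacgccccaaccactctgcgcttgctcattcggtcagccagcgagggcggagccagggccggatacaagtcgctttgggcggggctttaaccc

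Top2a held 4 copies of CCAAT and 3 of the cell cycle homology region in these 150 bases, and Cdca8 3 copies of CCAAT. Ccnb1 held 2 copies of CCAAT and no match to the other motif in its whole window. Top2a, Ccnb1 and Mad2l1, with unlike motif content, were all lowest in tumor 313 and highest in tumor 318. So were most members, as 33 of the 34 complete genes were lowest in 313 and 30 highest in 318. Whether motif content bears on this order was not tested.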

How the data were processed

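Each of the 6 tumors was measured on 1 array. The deposited scanner files hold, per the file headers, mean pixel and median background intensity for both dyes, before normalization, and a log10 ratio of dye-normalized signals. Agilent Feature Extraction 9.1.3.1 made them, per the submitters' processing notes. The deposited value table holds that same log10 ratio (largest difference 0).

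With limma 3.58.1 in R 4.3.3, intensities were corrected by normexp (offset 50) and ratios normalized by loess within each array, control and outlier-marked spots having weight 0. Outlier-marked spots were then dropped and spots of a probe averaged. A gene was read from its brightest probe that passed the filter. Of 41174 probes, 23374 took a RefSeq name (GRCm38.p6) by accession, 6733 by current symbol and 2919 by a former symbol, while 8148 stayed under the array's name. A probe named Aim1, a former name that Aurkb shares with another gene, was left out. The filter asked for a signal well above background in 3 or more arrays, in Cy5 for the day comparison (15804 genes) and in either dye for the reference (16310 genes). Both comparisons used 2-sided tests by lmFit and eBayes, Benjamini-Hochberg adjustment over all genes tested and a threshold of 0.05, with an absolute log2 ratio of at least 1 against the reference. Cy5 and Cy3 SDs and marker sums came from quantile-normalized signals without the lost area of array 312. The fit was tested on simulated data. Median Cy5 intensity per array was 198.0 to 309.5, and the number of arrays limits the precision. Values per tumor were given for genes of smallest p in each role and genes whose call depends on a setting, and up to 3 genes of smallest p for each other list. Other genes with such values were chosen after their values were seen. The 36 genes and all lists were chosen with earlier results of these data known. Alternatives covered background correction, normalization, filter, probe choice, array position, the lost area, the tumor channel alone and each tumor left out. A result for 1 listed gene is not reported here.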

Additional observations from a re-analysis of the deposited data

Results flagged for a closer look

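The 36 genes and the medians of 14 gene sets were examined over the 6 tumors for a single tumor far from the others, and 1 was found. Cenpa, the centromeric histone H3 variant, had a log2 ratio of -0.50 in tumor 318. The gap to the nearest other tumor (312, at -1.07) was 0.629 of the whole range, above Dixon's 95% critical value for 6 samples. Chance alone marks about 1 in 20 such groups. Groups of 3 tumors were not examined in this way.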

How the results depend on the processing

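Between the days, members called higher and lower were 0 and 0 in every planned setting, with every tumor left out in turn, and in the tumor channel without the lost area, a setting added after seeing the data. The median difference ranged from -0.44 (median centring) to -0.05 over settings that kept all tumors, and from -0.40 to 0.35 when tumors were left out in turn. Against the reference, members called lower ranged from 27 to 35 over settings with all tumors where all 36 were tested, were 23 of 29 where all 6 Cy5 signals had to be well above background, and ranged from 21 to 29 with a tumor left out. Members called higher were 0 throughout. The median ratio was -2.07 with median centring in place of -1.29, which moved the median of all genes too, and ranged from -1.49 to -1.06 with a tumor left out. Over single genes and settings against the reference, 502 results kept their side of the threshold, 24 passed it newly and 7 no longer passed. Ccna2, Plk1, Cdca8, Cenpf, Kif20a and Cdca3 are those that no longer passed. No paired analysis was possible because no tumor number occurs at both days. Over all genes, day calls were 2 higher and 7 lower, and ran from 0 to 3 and from 0 to 24 over the settings. Genes lower than the reference ran from 1196 to 4594, against 1591. Position on the slide as a block left the day calls at 0 and the reference calls at 27. Dim signals limit Ttk in tumors 307, 312 and 313, and Cdc25c, Hmmr and Anln in tumor 313.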
